A study of Mus musculus with 3 samples.

Results

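In this series 9 genes of the DNA methylation cycle were followed in mouse embryonic stem cells whose protein synthesis had been blocked with cycloheximide. They were picked by symbol for their role, with earlier results of these data known, and no threshold on a measured value was used: the DNA methyltransferases Dnmt1, Dnmt3a and Dnmt3b, the cofactors Dnmt3l and Uhrf1, the dioxygenases Tet1, Tet2 and Tet3, and the glycosylase Tdg. All 9 symbols were found among the 32285 genes of the tables. The cells were the E14 line, derived from strain 129/Ola and grown in serum with the cytokine LIF. The control library came from cells kept in ethanol, the solvent, for 6 h, and the other 2 libraries from cells given cycloheximide at 250 µg/mL in ethanol for 3 h or 6 h, all starting 24 h after seeding. Every group was 1 single-cell library made from the 3′ ends of transcripts, so no difference below has a replicate check and no test across samples was possible. The 3 h library has an ethanol control of 6 h only, so exposure time and drug cannot be told apart in that comparison.

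Methylation of cytosine at CpG dinucleotides is copied onto the new strand after replication by DNMT1, which UHRF1 recruits to hemimethylated DNA. New methylation is laid down by DNMT3A and DNMT3B, whose activity DNMT3L raises although it has no catalytic activity of its own. The TET enzymes oxidize methylated cytosine step by step, and TDG excises the later oxidation products so that repair can restore an unmethylated base. Embryonic stem cells in serum are known to express both arms of this cycle at once, with Tet1 and Tet2 as their main TET genes. Cycloheximide stops ribosomes during elongation, and so short-lived proteins that are lost are not replaced.

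The sequences just upstream of the annotated start sites of 4 of the genes are shown because these genes differed most in how their transcripts behaved: Tet1, Tet2 and Dnmt3b were lower past 1.5-fold after 6 h, and Dnmt3l was the one with the highest ratio after 3 h. They were taken from RefSeq on GRCm38.p6, written 5′ to 3′ on the gene's own strand, with each CpG in capitals. In GENCODE M21, also on GRCm38, the whole Tet1 gene spans chr10:62804570-62908996, Tet2 chr3:133463679-133545139, Dnmt3b chr2:153649450-153687730 and Dnmt3l chr10:78041947-78063622. Only the longest stretch of the 250 bases before the start that lies outside annotated exons is printed. The Tet1 stretch lies at chr10:62887325-62887412 on the minus strand, within the Tet1 gene as GENCODE draws it. The Tet2 stretch lies at chr3:133544391-133544640 on the minus strand, in an intron of a longer annotated Tet2 transcript. The Dnmt3b stretch lies at chr2:153649199-153649448 on the plus strand, upstream of the gene and overlapped by its antisense gene Dnmt3bos. The Dnmt3l stretch lies at chr10:78042128-78042286 on the plus strand, where the neighbouring gene Aire overlaps it. It belongs to 1 of the 3 start sites annotated for Dnmt3l, and which of them these cells used is not known.
Tet1: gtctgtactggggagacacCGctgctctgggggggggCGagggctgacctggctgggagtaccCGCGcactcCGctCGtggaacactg
Tet2: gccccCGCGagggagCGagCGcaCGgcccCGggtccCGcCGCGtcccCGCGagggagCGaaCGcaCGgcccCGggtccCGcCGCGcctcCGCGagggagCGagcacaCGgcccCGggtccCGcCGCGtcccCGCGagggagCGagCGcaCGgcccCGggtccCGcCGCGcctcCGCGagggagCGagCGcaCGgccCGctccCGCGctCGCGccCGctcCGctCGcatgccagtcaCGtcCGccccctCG
Dnmt3b: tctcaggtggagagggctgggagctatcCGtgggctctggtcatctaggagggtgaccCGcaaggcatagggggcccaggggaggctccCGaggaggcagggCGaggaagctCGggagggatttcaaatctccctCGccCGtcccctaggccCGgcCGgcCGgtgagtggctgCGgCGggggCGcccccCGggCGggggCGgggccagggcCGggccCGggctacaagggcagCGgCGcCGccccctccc
Dnmt3l: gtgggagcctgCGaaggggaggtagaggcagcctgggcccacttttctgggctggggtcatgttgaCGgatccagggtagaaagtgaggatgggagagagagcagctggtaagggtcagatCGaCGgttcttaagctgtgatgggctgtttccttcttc

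The Tet2 window held 51 CpG dinucleotides in its 250 bases, at the 99.9th percentile of the 32851 annotated windows of that length, whose median was 6. Dnmt3b had 21 and Tet1, over its full window, 15, at percentiles 83.7 and 72.7. The 3 start sites annotated for Dnmt3l had 5, 4 and 3, below the median. The 3 genes past 1.5-fold thus spanned 15 to 51 CpG, with an upper quartile of 16 over all windows, and Dnmt3a, lower by less than 1.5-fold, had 38, 40 and 15 in its 3 windows. The remaining genes, also within 1.5-fold, covered much of the same range. Tdg had 19, Tet3 17, Uhrf1 10 and 30, and Dnmt1 2, 7 and 26. The GC box, GGGCGG read on both strands, occurred in 11 of the 16 windows annotated for the 9 genes, against 32.7% of all windows. The CCAAT box occurred in 6 of the 16, against 33.9% of all windows. The STAT motif TTCNNNGAA occurred in 2 of the 16, against 7.02%, once each at Dnmt3l and Tdg. The E2F motifs TTTCCCGC and TTTGGCGC, the ETS motif CCGGAAGT and the Esrrb motif TCAAGGTCA occurred in none, against 0.895%, 0.417%, 2.88% and 0.387% of all windows. All motifs were read on both strands. Such matches are descriptions of the letters, and counts from 3′ ends do not tell which start site the cells used.

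After keeping barcodes with at least 15000 UMIs (counts of distinct captured molecules) and 1 to 20% of UMIs from mitochondrial genes, 2187 control cells, 1739 cells after 3 h and 2554 after 6 h remained, with median depths of 43160, 51726 and 46200 UMIs. The lower mitochondrial limit removed 62 control barcodes but only 1 and 8 of the treated libraries. The libraries shared 1 to 3 kept barcodes in pairs. The stem cell markers went with the label: all 7, including Pou5f1, Sox2 and Nanog, were at 57.7 CPM (UMIs of a gene per 1000000 UMIs of the summed cells) or more in every library. Summed levels of the fibroblast, endoderm, mesoderm and neural lists stayed at or below 30.6 CPM, and none of those genes reached a mean of 10 CPM. The 2-cell-like list summed to 0.619 CPM in the control, with 8 of the 14 genes found at 0, and to 0.253 and 0.0071 in the 3 h and 6 h libraries, with 9 and 13 at 0. Genes with a mean of 10 CPM or more numbered 7608. Their median log2 ratio to control was 0.11 after 3 h and 0.17 after 6 h by CPM, but -0.06 and -0.12 with TMM factors, which trim extreme genes, and 0.38 and 0.27 in UMIs per cell. Small ratios below are therefore tied to the scaling. By CPM, 2 of the 7 stem cell markers were lower past 1.5-fold after 6 h against control, beside 7.79% of the 7608 genes. At 6 h against 3 h, 4 of the 7 were lower past it, beside 2.52%.

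The 9 genes spanned a wide range of transcript levels in control cells. Tet1 led with 328 CPM, followed by Dnmt1 with 158, Uhrf1 with 134, Tet2 with 89.7, Dnmt3l with 68.5, Dnmt3a with 50.8, Dnmt3b with 50.3, Tdg with 35.9 and Tet3 with 6.62. Since a 3′ protocol counts a molecule once whatever its length, these levels were not divided by length. Only Dnmt3a and Dnmt3b, the catalytic de novo enzymes, had counting intervals that overlapped as neighbours in this order. At 3 h no neighbours overlapped. At 6 h Uhrf1 overlapped Dnmt1 and Tet2 overlapped Dnmt3b, so that Tet2 had moved from the fourth place to the level of the least abundant methyltransferase. The intervals are exact 95% Poisson intervals, which cover counting error only and not the differences between cultures.

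**Figure D1:**
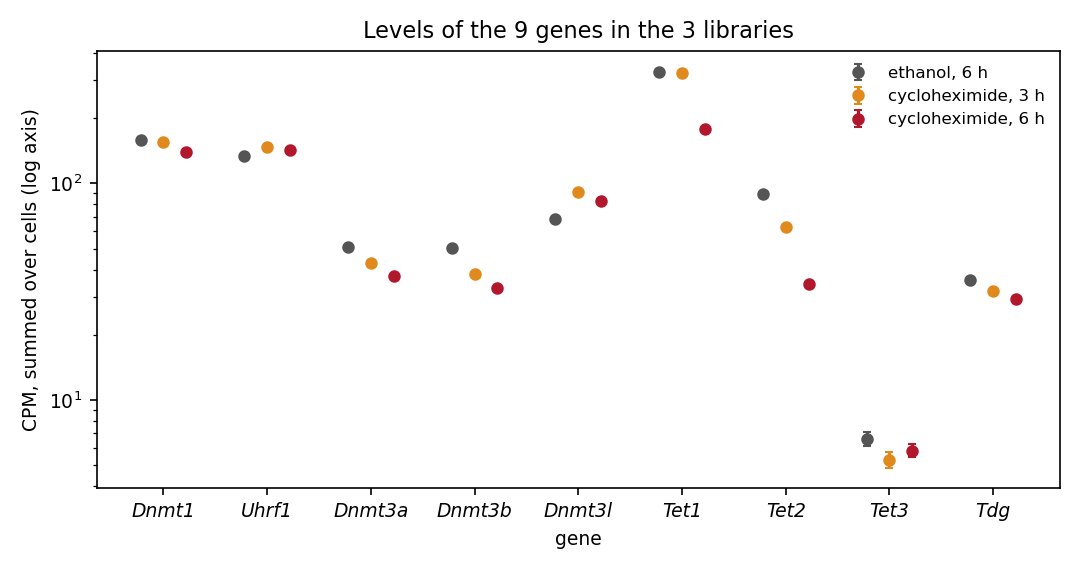
Level of each of the 9 genes as CPM (log axis) in the control, 3 h and 6 h libraries, 1 library each, with exact 95% Poisson intervals that cover counting error only. Tet1 after 6 h stands at 179 CPM against 328 in the control, and Tet2 steps down at both times from 89.7 to 62.5 to 34.4 CPM.

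None of the 9 genes was past 1.5-fold in either direction after 3 h. Of the 7608 genes above the 10 CPM floor, 13.9% were higher and 2.13% lower past that fold after 3 h. At 6 h against control none of the 9 was higher past 1.5-fold, where 22.1% of all genes were. Lower past it were 3 of the 9, Tet2, Tet1 and Dnmt3b, where 7.79% of all genes were. With TMM factors 11.6% of all genes were higher and 16.9% lower after 6 h, and Dnmt3a joined the lower ones, making 4 of the 9. Between 3 h and 6 h, a comparison that does not use the control library, Tet1 and Tet2 were lower past 1.5-fold against 2.52% of all genes, and none was higher against 1.74%. The median log2 ratio of the 8 genes above the floor was -0.10 after 3 h and -0.37 after 6 h, beside 0.11 and 0.17 for all genes above it. With Tet3 included the medians were -0.18 and -0.30. In UMIs per cell the 3 h median of the 9 was 0.09. The comparisons after 3 h and 6 h share the control library, so their values are set side by side and do not support each other. Tet3 had a mean of 5.91 CPM, below the 10 CPM floor, so 8 of the 9 genes entered the percentages.

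The maintenance pair, Dnmt1 and Uhrf1, stayed within 1.5-fold of control under the reported setting and all 12 others for scaling, barcodes and cells. Dnmt1, the enzyme that copies methylation after replication, stood at 158 CPM in the control, 156 after 3 h and 139 after 6 h. Its 3 h level lay within counting error of the control, with a log2 ratio of -0.02 (interval -0.05 to 0.01) that became 0.25 in UMIs per cell, and its 6 h ratio was -0.19 (-0.21 to -0.16), or -0.47 with TMM factors. Uhrf1, which brings DNMT1 to replicated DNA, stood at 134, 147 and 142 CPM. Its log2 ratios were 0.14 after 3 h and 0.09 after 6 h by CPM, and they turned to -0.03 and -0.19 with TMM factors. The ratio of Uhrf1 to Dnmt1 UMIs within a library needs no scaling, and it went from 0.845 in the control to 0.947 after 3 h and 1.02 after 6 h. Summed, the pair had 291 CPM in the control, 303 after 3 h and 281 after 6 h.

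The de novo genes moved apart. Dnmt3b, one of the catalytic enzymes, stood at 50.3 CPM in the control, 38.1 after 3 h and 32.9 after 6 h. That was a log2 ratio of -0.40 (-0.46 to -0.34) after 3 h and -0.61 (-0.67 to -0.55) after 6 h, or 1.53-fold lower, just past the 1.5-fold mark. Of the 12 other settings, Dnmt3b kept its place past 1.5-fold in 8, and its 6 h ratio ranged from -0.90 to -0.50. Dnmt3a, the other catalytic enzyme, went the same way with smaller steps, from 50.8 to 42.7 to 37.3 CPM. Its log2 ratios were -0.25 after 3 h, which became 0.02 in UMIs per cell, and -0.45 after 6 h, which became -0.73 and so past 1.5-fold with TMM factors. Dnmt3l, the cofactor without catalytic activity, stood at 68.5 CPM in the control, 91.5 after 3 h and 83.1 after 6 h, so both treated libraries were above the control. Its log2 ratio was 0.42 (0.37 to 0.46) after 3 h and 0.28 (0.24 to 0.32) after 6 h, the latter -0.01 with TMM factors. By CPM these ratios lay at percentiles 77.4 and 58.8 of all genes, so many genes were higher by more.

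The proportion of the cofactor to the catalytic genes within a library, which no scaling between libraries affects, shifted. There were 0.678 Dnmt3l UMIs for each UMI of Dnmt3a and Dnmt3b together in the control (0.659 to 0.698), 1.13 after 3 h (1.10 to 1.17) and 1.18 after 6 h (1.15 to 1.22). Dnmt3b also lost ground to Dnmt3a, with 0.989 UMIs per Dnmt3a UMI in the control, 0.893 after 3 h and 0.884 after 6 h. The last 2 intervals overlapped each other. Summed CPM of the 3 genes hid this shift, at 170 in the control, 172 after 3 h and 153 after 6 h.

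Tet1 and Tet2 had the largest 6 h ratios of the 9 genes. Tet1, the most abundant in stem cells, stood at 328 CPM in the control, 323 after 3 h and 179 after 6 h. The control and 3 h libraries were alike and the 6 h library was far below both. Its log2 ratio after 3 h was -0.02 (-0.04 to 0.00), at the 33.1 percentile of all genes, and that small ratio changed sign with the setting, up to 0.25 in UMIs per cell. At 6 h the ratio was -0.87 (-0.90 to -0.85), or 1.83-fold lower, at percentile 3.38. Against the 3 h library the 6 h level was 1.81-fold lower, at percentile 0.986.

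Tet2 followed another course. It stood at 89.7 CPM in the control, 62.5 after 3 h and 34.4 after 6 h, so each treated library was below the one before. Its log2 ratio was -0.52 (-0.57 to -0.48) after 3 h, or 1.43-fold lower, at percentile 2.94 of all genes. At 6 h it was -1.38 (-1.43 to -1.33), or 2.61-fold lower, at percentile 0.999. The step from 3 h to 6 h alone was -0.86 (-0.92 to -0.81), close to the -0.85 (-0.88 to -0.83) of Tet1 over the same interval. Within a library there were 0.273 Tet2 UMIs per Tet1 UMI in the control (0.267 to 0.280), 0.193 after 3 h (0.188 to 0.199) and 0.192 after 6 h (0.186 to 0.198). The proportion of these genes thus differed between control and 3 h and not detectably between 3 h and 6 h.

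**Figure D2:**
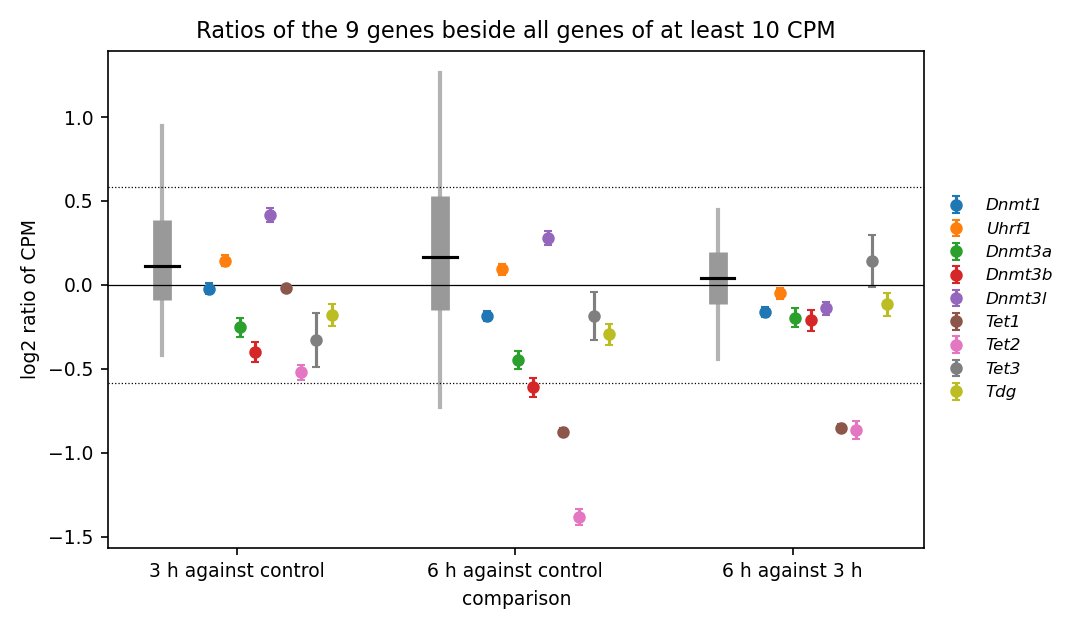
Log2 ratio of each gene for 3 h and 6 h against control and for 6 h against 3 h, with 95% intervals from counting error, beside the range from the 5th to the 95th percentile of all 7608 genes (-0.42 to 0.95 after 3 h and -0.73 to 1.26 after 6 h). Tet2 lies below that range at both times and Tet1 after 6 h only.

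Tet3, known mainly from the oocyte and from neurons, was scarce, with 6.62 CPM in the control, 5.28 after 3 h and 5.82 after 6 h from 738, 564 and 817 UMIs. Its log2 ratios of -0.33 (-0.49 to -0.17) and -0.19 (-0.33 to -0.04) had the widest intervals of the set. Between 3 h and 6 h its interval, -0.01 to 0.30, included 0, so no difference was detectable at this depth. Tdg, the glycosylase downstream of the TET enzymes, stood at 35.9, 31.7 and 29.2 CPM. Its log2 ratio was -0.18 after 3 h, which was 0.09 in UMIs per cell, and -0.30 (-0.36 to -0.23) after 6 h. Processed pseudogenes of Tdg, Dnmt3a and Dnmt3l are annotated but were not among the genes counted, so reads shared with them could have been lost. That limit also holds for the proportion of Dnmt3l to Dnmt3a and Dnmt3b. The counting of shared reads and of antisense or overlapping genes was not stated.

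The 3 TET genes together went from 424 CPM in the control to 391 after 3 h and 219 after 6 h, a log2 ratio of -0.95 (-0.97 to -0.93) after 6 h. Set against the catalytic methyltransferases of the same library, there were 1.64 TET UMIs per UMI of Dnmt1, Dnmt3a and Dnmt3b in the control, 1.65 after 3 h and 1.05 after 6 h. Tet1 alone gave 2.08 UMIs per Dnmt1 UMI in the control (2.04 to 2.11), 2.08 after 3 h (2.04 to 2.12) and 1.29 after 6 h (1.26 to 1.31). These proportions do not depend on the scaling between libraries. They are proportions of transcripts, and in a culture whose translation was blocked they give no protein level.

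Tet1 and Tet2 were lower past 1.5-fold after 6 h, against both control and 3 h, in each of the 12 other settings. The 6 h log2 ratio of Tet1 ranged from -1.16 with TMM factors to -0.77 in UMIs per cell, and that of Tet2 from -1.67 to -1.27. Tet2 after 3 h crossed 1.5-fold in 2 of the 12, with TMM factors (-0.69) and after subtracting free RNA (-0.59). Dnmt3l after 3 h crossed it upward in UMIs per cell only, at 0.69.

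**Figure D3:**
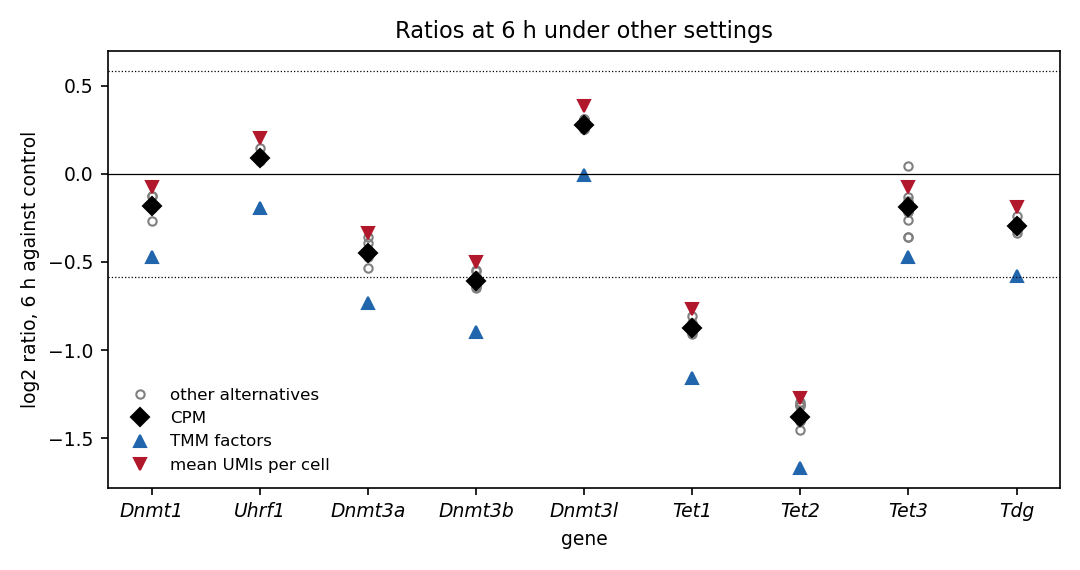
Log2 ratio of the 9 genes under each of the 12 other settings and the one reported, for 6 h against control, with dotted lines at 1.5-fold. All points of Tet1 and Tet2 after 6 h lie below the lower line, while those of Dnmt3b lie on both sides of it, from -0.90 to -0.50.

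Cell cycle and pluripotency genes differed between the same libraries. Per cell thinned to 15000 UMIs, the 41 S phase genes summed to 80.5 UMIs in the control, 95.1 after 3 h and 102 after 6 h, and the 52 G2M genes to 136, 122 and 119. The 9 naive pluripotency genes summed to 23.8 UMIs in the control, 32.7 after 3 h and 19.2 after 6 h. The naive sum was therefore highest after 3 h and lowest after 6 h, but its genes differed. By CPM, 8 of the 9 naive genes were above the control after 3 h and 3 after 6 h, beside 64.1% of all genes each time. With TMM factors 8 and 1 were above it, beside 42.6% and 40.5%. At 6 h against 3 h none of the 9 was higher by CPM, where 57.7% of all genes were. Lower past 1.5-fold in that comparison were 5 of the 9, beside 2.52% of all genes. Tfcp2l1, at 80.4, 51.1 and 38.7 CPM, was lower at both times. It was the only 1 of the 9 below the control after 3 h. Among cells at or below their library's median G2M share, the 6 h log2 ratio was -0.91 for Tet1 and -1.29 for Tet2, and among cells above it -0.85 and -1.45, so both genes were past 1.5-fold on either side. For Dnmt3b the ratios were -0.65 below and -0.58 above the median. Tet3 after 6 h was 0.04 in the cells below and -0.36 in those above. The part of S phase and naive genes in these ratios was not tested.

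The lower TET levels were spread over the cells. With each cell thinned to 15000 UMIs, Tet1 was seen in 97.4% of control cells (exact Clopper-Pearson interval 96.7 to 98.1), 97.5% after 3 h and 88.6% after 6 h (87.3 to 89.8). Its median per cell was 5 UMIs in the control, 5 after 3 h and 2 after 6 h, and the 90th percentile was 9, 9 and 6, so the low and the high cells both had fewer UMIs after 6 h. Without thinning the shares were 99.7%, 99.9% and 98.9%, closer together at full depth. Tet2 was seen in 67.5% of thinned control cells (65.5 to 69.5), 58.5% after 3 h and 40.0% after 6 h (38.1 to 41.9). Its mean was 1.35, 1.02 and 0.552 UMIs per cell. Unthinned, its shares were 92.7%, 90.9% and 77.4%.

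**Figure D4:**
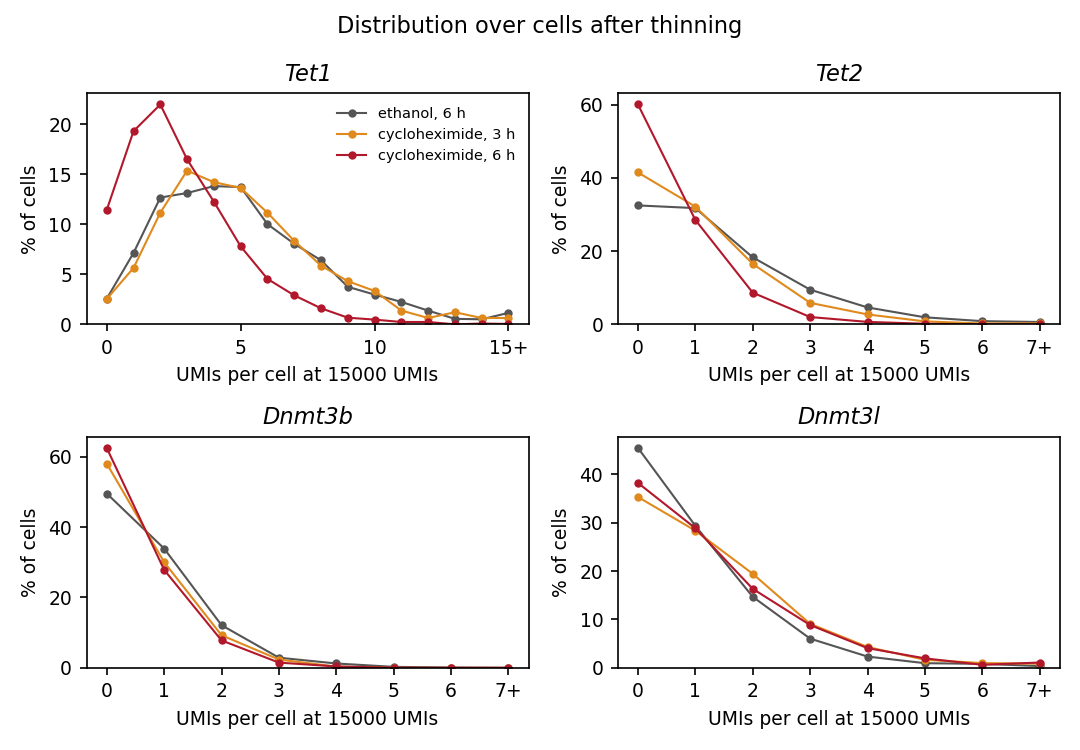
Distribution of UMIs per cell for Tet1, Tet2, Dnmt3b and Dnmt3l after thinning every cell to 15000 UMIs, as the percent of cells of each library (the last point pools all higher counts). The 6 h curves of Tet1 and Tet2 are shifted toward 0, with 88.6% and 40.0% of cells holding at least 1 UMI, and the treated curves of Dnmt3l hold fewer cells at 0 than the control.

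For the methyltransferase genes the shares of thinned cells with a UMI followed the CPM. Dnmt3b was seen in 50.5% of control cells, 42.0% after 3 h and 37.5% after 6 h, and Dnmt3a in 48.8%, 44.2% and 39.9%. Dnmt3l was seen in 54.5%, 64.7% and 61.8%. Dnmt1 was seen in 88.6%, 87.4% and 84.4% of cells and Uhrf1 in 83.5%, 85.0% and 85.1%. Tdg had shares of 40.5%, 37.8% and 35.3%, and Tet3 of 9.74%, 7.65% and 7.67%. Cells were not clustered and no cell type lacking these genes was identified, so the share that free RNA alone gives could not be read from one. In barcodes of 10 to 100 UMIs, taken as free RNA, Tet1 stood at 262 CPM in the control, 334 after 3 h and 148 after 6 h, and Tet2 at 113, 105 and 42.8.

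The spread between cells beyond counting noise was given as the excess squared coefficient of variation, which is 0 for a gene at 1 level in all cells. Dnmt3l had the largest value of the 8 genes other than Tet3, 0.640 in the control, 0.576 after 3 h and 0.547 after 6 h. Dnmt3a followed with 0.446, 0.498 and 0.408, and Tet2 with 0.382, 0.406 and 0.325. Tet1, although more abundant, had 0.193, 0.161 and 0.242. Dnmt1 was among the most even, with 0.061 in the control, 0.123 after 3 h and 0.102 after 6 h. Tet3 was too scarce for a stable value. Cells of 1 library are not replicates, and another random thinning moved 14 of the 27 values by more than 0.05. In that thinning Dnmt3l came out at 0.539, 0.488 and 0.537, again above the other 7. The order below it changed after 6 h, with Dnmt3b at 0.376, Tet2 at 0.311 and Dnmt3a at 0.294.

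Across control cells Tet1 and Tet2 had the highest r of any pair of the 9, 0.22 over 2187 thinned cells, 0.17 after 3 h and 0.12 after 6 h. Tet1 correlated with the S phase sum at 0.25, 0.18 and 0.14 and with the naive sum at 0.19, 0.16 and 0.11. Tet2 correlated with the naive sum at 0.22, 0.19 and 0.11. Uhrf1 followed the S phase sum most closely of the 9, at 0.32, 0.28 and 0.26. Dnmt1 had 0.15, 0.22 and 0.24 with the same sum, and its r with Uhrf1 was only 0.05, 0.09 and 0.09. Dnmt3l ran slightly against the naive sum, at -0.06, -0.10 and -0.14, but the 6 h value turned to 0.30 without thinning. All of these are weak and describe cells of single libraries. Tet1 and Tet2 levels also differed between these libraries, and their part in the smaller r after 6 h was not tested.

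**Figure D5:**
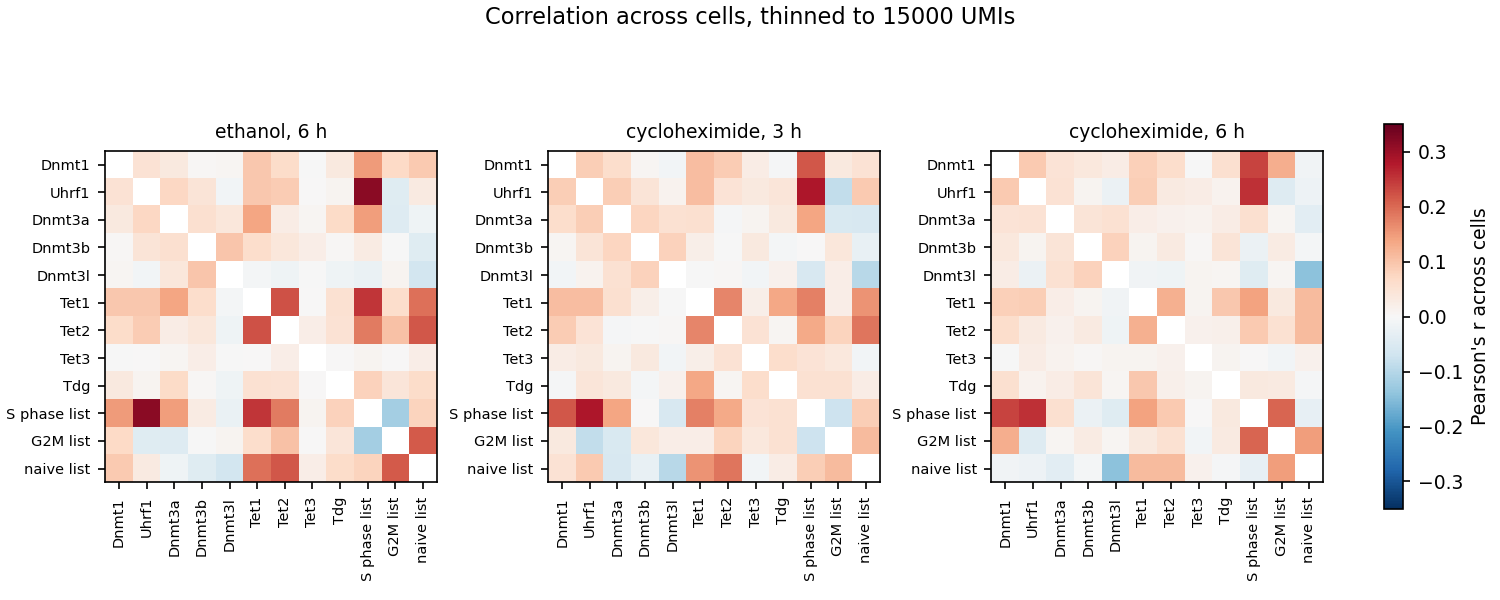
Pearson r across thinned cells of the control, 3 h and 6 h libraries for pairs of the 9 genes and of the S phase, G2M and naive sums, as a colour from -0.35 to 0.35. Uhrf1 with the S phase sum (0.32 in the control) is the highest of the values named, and the Tet1 and Tet2 pair goes from 0.22 to 0.12.

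Of 6372 genes measured well enough, those most like Tet1 across control cells were Hnrnpa3, with r of 0.36 in the control, 0.28 after 3 h and 0.18 after 6 h, Malat1, with 0.36, 0.30 and 0.21, and Hnrnpu, with 0.33, 0.29 and 0.19. The same 3 genes led for Tet2, with Malat1 at 0.26, 0.21 and 0.13. Malat1 is a nuclear non-coding RNA, and Hnrnpa3 and Hnrnpu encode RNA-binding proteins of the nucleus. Uhrf1 was most like Pcna, the replication clamp, with 0.20, 0.12 and 0.10, then Nasp and Akap12. Dnmt1 was most like L1td1, with 0.18, 0.21 and 0.17, then Serbp1 and Hspa4. Dnmt3l was most like Folr1, a folate receptor, with 0.16, 0.12 and 0.12, then Actb and Mt1. For Dnmt3a, Dnmt3b, Tet3 and Tdg the best r was 0.14 or less. The median size of r over all genes was 0.05 for Tet1 and 0.04 for Tet2 in the control.

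Other genes of the pathway were counted in 4 lists. Among 14 measured partners of the methyltransferases, 1 was higher and 2 were lower past 1.5-fold after 6 h, beside 22.1% and 7.79% of all genes. With TMM factors these counts were 0 and 3, beside 11.6% and 16.9%. The list's median log2 ratio was 0.05 beside 0.17 for all genes. Cdca7, which works with the remodeler HELLS in maintaining methylation, stood at 112 CPM in the control, 177 after 3 h and 195 after 6 h. Its log2 ratio was 0.66 after 3 h and 0.79 after 6 h, or 0.48 and 0.51 with TMM factors, short of 1.5-fold. Zfp57, a zinc finger protein that protects imprinted methylation, was at 217, 231 and 140 CPM, so it was lower after 6 h only, with log2 ratios of -0.63 to control and -0.72 to 3 h. Ehmt2, a histone H3 lysine methyltransferase also known as G9a, was at 58.9, 45.4 and 37.3 CPM, with a ratio of -0.66 after 6 h. In UMIs per cell the 6 h ratios were -0.52 for Zfp57 and -0.55 for Ehmt2, short of 1.5-fold.

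The other lists held the readers of methylated CpG, the partners of demethylation and germline genes that promoter methylation is known to silence. None of the 5 readers above the floor was past 1.5-fold by CPM. Of all genes, 13.9% were higher and 2.13% lower after 3 h, and 22.1% and 7.79% after 6 h. In UMIs per cell 2 of the 5 were higher past it after 3 h, beside 30.1% of all genes. The median log2 ratio of the readers was 0.22 after 3 h and 0.27 after 6 h, the latter -0.02 with TMM factors. Of 9 genes of cytosine oxidation and base repair above the floor, 2 were lower after 6 h and none higher, with a median of -0.15. Of all genes, 7.79% were lower and 22.1% higher, with a median of 0.17. In UMIs per cell none was lower and 2 were higher, the endonuclease gene Apex1 at 0.65 and the repair polymerase gene Polb at 0.60. Of all genes, 5.49% were lower and 27.8% higher in that setting. Cxxc5, a CpG-binding protein reported to interact with TET2, was at 60.7, 53.3 and 40.2 CPM, a log2 ratio of -0.60 after 6 h. Idh1, which makes the 2-oxoglutarate that TET enzymes consume, was at 33.1, 25.7 and 22.0 CPM, a ratio of -0.59. Both lay near the mark and were short of it in UMIs per cell, at -0.49 and -0.48. Without the floor, all 16 genes of this list gave 5 higher and 2 lower after 6 h with a median of 0.42. The same count over all 19210 genes with more than 3 UMIs in either library gave 38.4% higher and 10.4% lower, with a median of 0.34.

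Of 12 germline genes, 2 were above the floor. Sycp3, a protein of the meiotic chromosome axis, was at 16.9, 21.5 and 26.1 CPM, a ratio of 0.63 after 6 h that was 0.35 with TMM factors. Ddx4, an RNA helicase of germ cells, was at 18.9, 13.5 and 13.3 CPM. Its log2 ratios were -0.49 and -0.51, and with TMM factors -0.66 and -0.80, past 1.5-fold. Most of the list was scarce but counted: without the floor, 6 of 11 genes were higher after 6 h and none lower, with a median of 0.63, beside the 38.4% and 0.34 of all genes. With TMM factors 3 of the 11 were higher and 1 lower, with a median of 0.35, beside 28.4% and 18.0% of all genes. Sycp1, of the same chromosome structure as Sycp3, went from 165 UMIs in the control to 455 after 6 h, a log2 ratio of 1.13. The gene left out, Asz1, had 0, 3 and 1 UMIs.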

How the data were processed

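Single-cell 3′ RNA libraries (10x Genomics) of E14 cells were deposited by the authors as matrices of UMI counts per gene and barcode. They were made with Cell Ranger, per the file headers; version 4.0.0 and mm10 are named in the submitters' processing notes. The annotation release was not given in the sources used here. Of the 32285 gene identifiers, 32158 matched GENCODE M21, which gave positions.

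Barcodes with at least 15000 UMIs and 1 to 20% UMIs of mt- genes were kept, doublets included, and no caller was run. Counts were summed per library (111447486 UMIs in the control, 106842407 at 3 h, 140321458 at 6 h) and scaled to CPM. Log2 ratios used a prior of 0.5 counts. CPM intervals are exact Poisson, ratio intervals exact conditional binomial and shares exact Clopper-Pearson, all 95% and for counting error only. For per-cell measures each cell was thinned to 15000 UMIs. Percentages over all genes use those with a mean of at least 10 CPM. Correlations used log(1 + UMIs), and likeness took genes of at least 0.2 UMIs per thinned cell. Calculations used Python 3.11.15, numpy 2.4.6 and scipy 1.17.1, and TMM factors came from edgeR 4.0.16 in R 4.3.3. The ratio step was tested on simulated counts. With 1 library per group no test across samples was run.

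The 9 genes and the lists were chosen with earlier results of these data known. From each pathway list, genes past 1.5-fold at 6 h with a mean of at least 10 CPM were to be named (at most 4 per list), and for likeness the 3 genes with the highest r in control cells. Tfcp2l1, Ddx4, Sycp1, Asz1, Apex1, Polb, Dppa3 and Prdm14 were named after their values were seen. The count of list genes without the expression floor, over genes with more than 3 UMIs in either library, was chosen after seeing the data. Alternatives covered scaling, barcode limits, prior, free RNA, doublets, G2M share, expression floor, fold and thinning.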

Additional observations from a re-analysis of the deposited data

How the results depend on the processing

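No paired analysis was possible because each group has 1 library. At 3 h, 1 gene (Dnmt3l) was higher past the fold in UMIs per cell, beside 30.1% of all genes, and 1 (Dnmt3l) at the lowest of the 3 fold thresholds tried, beside 29.5%. Lower past the fold at 3 h was 1 gene (Tet2) with TMM factors, beside 5.23% of all genes, 1 (Tet2) after subtracting 10% free RNA, beside 2.33%, and 3 (Dnmt3b, Tet2 and Tet3) at that lowest threshold, beside 8.33%. At a 2-fold threshold 1 gene (Tet2) remained lower at 6 h against control, beside 2.40% of all genes, and 0 at 6 h against 3 h, beside 0.657%. Under the other 1.5-fold settings the 6 h count of lower genes was 2 to 4: Dnmt3b was short of the fold in UMIs per cell, in the mean of per-cell CPM, without a mitochondrial limit and in cells above the median G2M share, and Dnmt3a was added with TMM factors.

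Log2 ratios that changed sign were, with TMM factors, Uhrf1 at 3 h (-0.0316) and 6 h (-0.1942) and Dnmt3l at 6 h (-0.0086). In UMIs per cell they were Dnmt3a (0.0184), Tdg (0.0910), Tet1 (0.25) and Dnmt1 (0.25) at 3 h, Tet3 at 6 h against 3 h (-0.02) and the median of the 9 genes at 3 h (0.0910). In cells at or below the median G2M share it was Tet3 at 6 h (0.0421), and in cells above it Tet3 at 6 h against 3 h (-0.08). Tet1 and Dnmt1 at 3 h were also above 0 without a mitochondrial limit (0.05 and 0.04), and Tet1 in the mean of per-cell CPM (0.0051). The median of all genes became -0.0631 at 3 h, -0.1204 at 6 h and -0.0683 between them with TMM factors, and -0.12 between them in UMIs per cell. The r of Dnmt3l with the naive sum at 6 h became 0.30 without thinning. The 6 h range was -1.16 to -0.77 for Tet1 and -1.67 to -1.27 for Tet2. The causes were not tested. Depth limits Tet3 most, with 564 to 817 UMIs per library, and no setting can stand for the missing replicates.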

Other observations

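Transcripts outside cells, read from barcodes of 10 to 100 UMIs, did not hold the 9 genes in the same proportions as the cells. Tet2 was at 113 CPM there (102 to 124) in the control against 89.7 in cells, at 105 (94.0 to 116) against 62.5 at 3 h, and at 42.8 (36.6 to 49.8) against 34.4 at 6 h, so it was higher outside cells in all 3 libraries. Tet1 was at 262 CPM (246 to 279) against 328 in control cells and at 148 (136 to 161) against 179 at 6 h, lower outside cells in both, while at 3 h its 334 (314 to 354) was within counting error of the 323 in cells. Uhrf1 was higher outside cells in each library, at 157 against 134, 182 against 147 and 157 against 142 CPM. Both places showed Tet1 lower at 6 h than in the control and Tet2 lower at 6 h than at 3 h. The control and 3 h libraries compared differently in the 2 places. Outside cells the Tet2 intervals of these libraries overlapped, while in cells Tet2 was lower at 3 h. Tet1 was higher at 3 h than in the control outside cells, with intervals apart, and alike in cells. What sets these proportions was not tested.

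Dppa3, which limits maintenance methylation in the early embryo, and Prdm14, which represses the de novo enzymes in the naive state, lay below the 10 CPM mean. Dppa3 was at 3.36, 4.66 and 8.65 CPM in the control, 3 h and 6 h libraries, and Prdm14 at 4.49, 8.04 and 9.56. Both were therefore lowest in the control and highest at 6 h, with 6 h log2 ratios to control of 1.365 and 1.09 by CPM. Among all genes with more than 3 UMIs in either library, 38.4% were higher past 1.5-fold in that comparison. Any relation to the levels of the 9 genes was not tested.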
